A study of Mus musculus with 8 samples.

Results

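The G2 and mitosis genes described here are 60 genes chosen by name, out of 19055 gene symbols measured, because their products act between the end of DNA replication and the separation of daughter cells. All 60 were found in the data, and 59 passed the filter on low values. The exception was Mybl2. They were followed in 8 mouse liver libraries, taken 48 hours after partial hepatectomy, the surgical removal of much of the liver. The 5 URI(+/D)Hep livers carried a deletion of URI in hepatocytes, made with a tamoxifen-inducible Cre recombinase under serum albumin sequences, and by their notation kept a + allele beside the D allele. The 3 URI(+/+)Hep livers came from wild-type littermates. Animals of both groups were 8 to 9 weeks old at surgery, had received tamoxifen for 1 week and were given the analgesic Buprex before the operation under isoflurane. An albumin-driven Cre leaves URI in the liver cells that are not hepatocytes, and RNA came from liver tissue, although the labels give the cell type as epithelial. Nothing in the labels says whether each library is a single animal, so p-values measure the spread between these libraries.

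Partial hepatectomy makes hepatocytes that were at rest re-enter the cell cycle, replicate their DNA and divide, and in mice the first wave of hepatocyte mitoses is commonly placed around the second day. Cyclin B bound to the kinase Cdk1 drives entry into mitosis, condensins compact the chromosomes, kinetochores attach them to spindle microtubules, and the spindle checkpoint holds the anaphase-promoting complex (APC/C) back until all are attached. The APC/C then marks securin and cyclin B for destruction, chromatids part, and a contractile ring at the spindle midzone cuts the cell apart. The transcripts of these genes are made mostly in G2 and mitosis, under the DREAM and MMB complexes and the factor FOXM1, so they are widely used to read how many cells of a tissue are dividing. In whole tissue, fewer dividing cells and less RNA per dividing cell cannot be told apart.

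Reads came from the 3′ ends of transcripts, and the unit used throughout is the normalized read, which by the values is a read count divided by a size factor of its library. Depth was 4294494 to 4800694 reads in the URI(+/D)Hep libraries and 3838674 to 4337966 in the URI(+/+)Hep libraries, and 1 read was worth 0.884 to 0.989 and 0.985 to 1.20 normalized reads in these groups. Uri1, the targeted gene, stood at 328, 398, 437, 354 and 401 normalized reads in URI(+/D)Hep livers 1 to 5, against 468, 374 and 310.1 in URI(+/+)Hep livers 1 to 3. The groups overlapped (log2 fold change 0.01, SE 0.15, limma adjusted p = 0.975), so the labels could not be checked by this transcript. A 3′ read outside the deleted part need not show the deletion. Xist, the RNA of the inactive X chromosome, lay between 1217 and 2356 normalized reads in the URI(+/D)Hep livers, against 9.59, 2.95 and 1298 in URI(+/+)Hep livers 1, 2 and 3. The Y-linked transcripts Ddx3y, Eif2s3y, Kdm5d and Uty summed to 3.54 in URI(+/D)Hep liver 1 and to 786 to 1002 in URI(+/D)Hep livers 2 to 5, against 1558, 1312 and 569 in URI(+/+)Hep livers 1 to 3. So 5 libraries held both kinds of transcript, URI(+/D)Hep liver 1 held next to no Y-linked reads, and URI(+/+)Hep livers 1 and 2 held next to no Xist.

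Nearly every member was low in the same pair of livers, 1 of each genotype. URI(+/D)Hep liver 5 and URI(+/+)Hep liver 1 were the pair with the lowest levels for 57 of 60 members, the exceptions being Mybl2, Bub3 and Pttg1. The same pair was the lowest for 11.0% of the 13704 genes tested. URI(+/D)Hep liver 5 was the lowest of all for 16 members and URI(+/+)Hep liver 1 for 42. For 51 members the 3 highest livers were URI(+/D)Hep livers 1 and 4 and URI(+/+)Hep liver 3. URI(+/D)Hep livers 2 and 3 and URI(+/+)Hep liver 2 lay between these extremes, with URI(+/D)Hep liver 3 the third lowest for 42 members.

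Summed over the 60 genes, the level was 18431, 12877, 9757, 18193 and 2736 normalized reads in URI(+/D)Hep livers 1 to 5, against 2136, 12439 and 20213 in URI(+/+)Hep livers 1 to 3. This was 0.434%, 0.310%, 0.228%, 0.428% and 0.0644% of all reads in URI(+/D)Hep livers 1 to 5, against 0.0464%, 0.291% and 0.463% in URI(+/+)Hep livers 1 to 3. Each genotype thus held both a liver at the low end and livers at the high end of the range. Between the pair of low livers and the lowest of the other 6 there was a clear step: the median member was 3.96 times as high in the lowest of the 6 as in the higher of the pair, and for 53 members this step was above 2. Counts in the low pair were small for some members. In URI(+/D)Hep liver 5, 4 members had 3 reads or fewer, against 9 in URI(+/+)Hep liver 1 and 0 in each of the other livers.

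**Figure D1:**
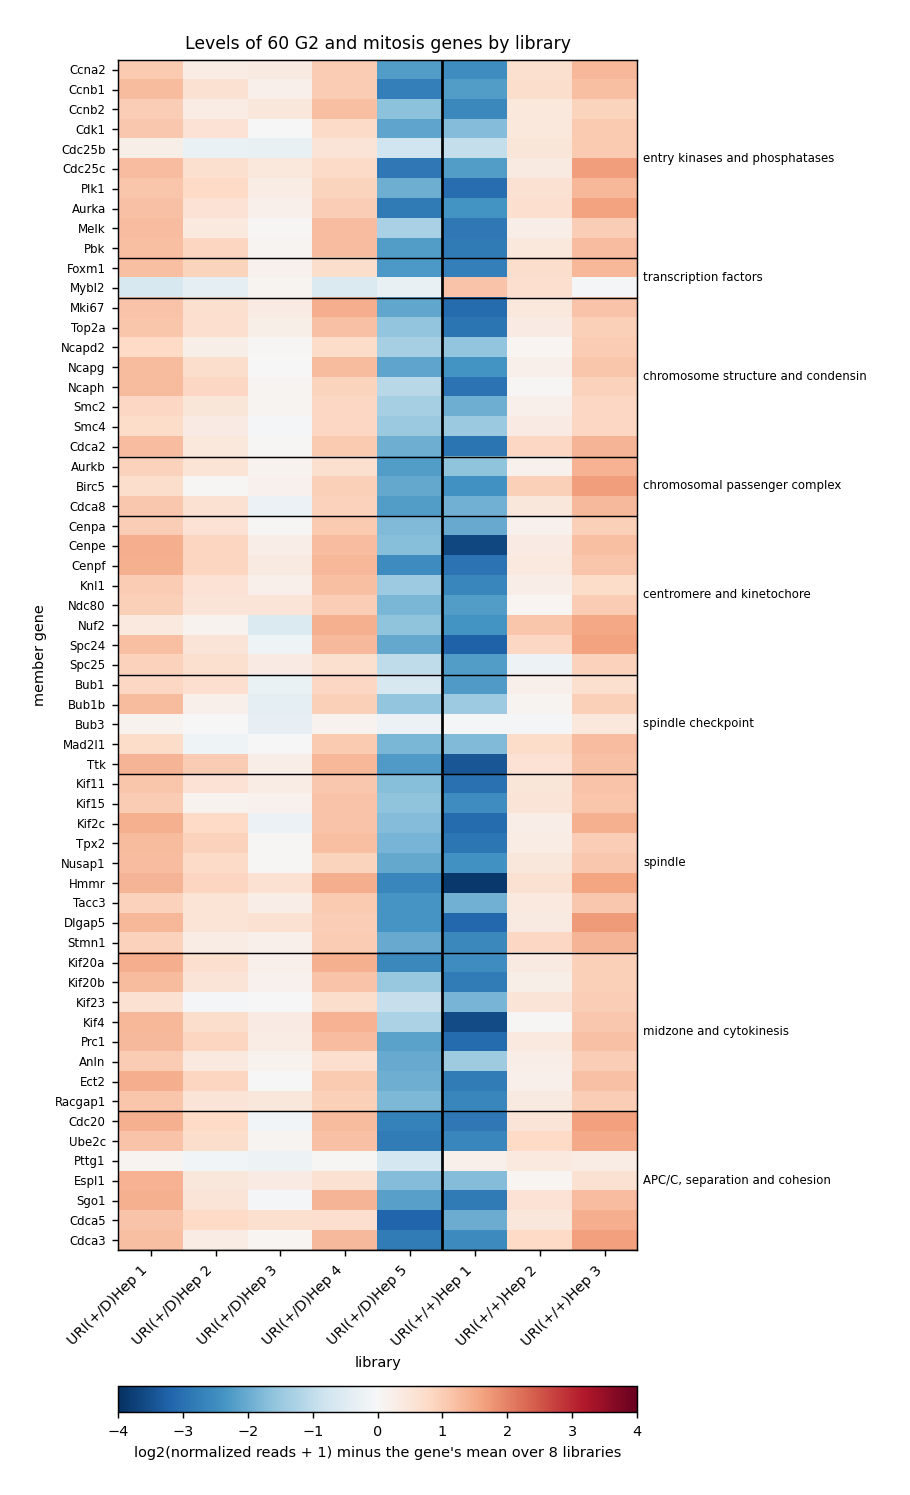
Each row is a member, each column a library, and the colour is log2(normalized reads + 1) minus the gene's mean over the 8 libraries, with URI(+/D)Hep libraries left of the vertical line and URI(+/+)Hep libraries right of it. URI(+/D)Hep 5 and URI(+/+)Hep 1 are blue, that is low, for 57 of the 60 members, while Bub3, Pttg1 and Mybl2 break the pattern.

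Promoters of the members are described next, as a trait of the list chosen by name and not of these livers. The RefSeq promoter table, of build GRCm38.p6, gives 300 bases for each start site, 250 before it and 50 from it on. It listed 51 promoters for 48 of the 60 members and none for Ccna2, Cdc25c, Pbk, Foxm1, Smc4, Cdca2, Aurkb, Spc24, Tpx2, Dlgap5, Stmn1 and Kif20a. Both strands were searched for the core of the cell cycle genes homology region (CHR), written TTTGAA or TTCGAA, to which DREAM and MMB bind, and for CCAAT, the element of the factor NF-Y. Below are the 3 members described in every library that hold both motifs and that had the largest ratio of highest to lowest liver, followed by 1 of the 2 promoters listed for Bub3, the member with the smallest ratio. CHR and CCAAT matches on either strand are in capitals, so that ATTGG is CCAAT and TTCAAA is TTTGAA on the other strand.
Kif4, chrX:100625815-100626114, plus strand: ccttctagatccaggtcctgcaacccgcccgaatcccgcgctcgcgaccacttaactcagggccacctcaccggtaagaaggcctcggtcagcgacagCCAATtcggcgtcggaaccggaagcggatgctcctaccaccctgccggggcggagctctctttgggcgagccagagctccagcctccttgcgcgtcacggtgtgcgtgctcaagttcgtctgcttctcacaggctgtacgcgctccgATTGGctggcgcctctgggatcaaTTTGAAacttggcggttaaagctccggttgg
Ttk, chr9:83834439-83834738, plus strand: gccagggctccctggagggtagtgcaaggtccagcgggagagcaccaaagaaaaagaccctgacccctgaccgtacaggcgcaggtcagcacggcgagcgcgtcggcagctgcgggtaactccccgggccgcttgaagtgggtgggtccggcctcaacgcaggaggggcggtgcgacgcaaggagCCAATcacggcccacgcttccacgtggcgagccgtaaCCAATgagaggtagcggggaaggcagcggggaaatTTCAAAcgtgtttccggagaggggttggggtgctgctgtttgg
Mki67, chr7:135716330-135716629, minus strand: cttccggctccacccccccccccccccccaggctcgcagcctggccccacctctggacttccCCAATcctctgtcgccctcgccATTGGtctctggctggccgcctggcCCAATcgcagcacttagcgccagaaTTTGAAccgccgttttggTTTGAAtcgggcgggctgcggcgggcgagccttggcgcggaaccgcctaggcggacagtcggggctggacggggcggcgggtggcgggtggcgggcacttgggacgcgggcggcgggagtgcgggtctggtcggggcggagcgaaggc
Bub3, chr7:131560120-131560419, plus strand: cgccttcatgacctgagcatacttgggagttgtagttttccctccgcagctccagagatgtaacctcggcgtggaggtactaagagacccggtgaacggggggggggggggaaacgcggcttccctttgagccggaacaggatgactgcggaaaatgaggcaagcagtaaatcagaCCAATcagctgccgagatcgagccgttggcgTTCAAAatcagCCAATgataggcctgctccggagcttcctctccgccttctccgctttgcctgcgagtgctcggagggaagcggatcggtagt

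Counted from the start site as position 1, with -1 the base before it, the CHR match began at 20 in the Kif4 promoter, at 8 in the Ttk promoter and at -43 in the Bub3 promoter. The Mki67 promoter held CHR matches at -116 and -98, downstream of 3 CCAAT matches. The CHR core was present in 40 of the 51 member promoters (78.4%), beside 14.4% of the 13289 promoters of genes tested and 19.2% of all 32851 promoters in the table. Within 50 bases of the start site it was present in 36 of 51 (70.6%), beside 3.82% of the promoters of genes tested. CCAAT was found in 68.6% of member promoters and 37.6% of those of genes tested, and both motifs in 64.7% and 5.82%. In the promoters of 90 other G2 and mitosis genes, where listed, CCAAT was about as frequent, at 64.4%, and the CHR core was found in 42.5%. In those of the S phase list CCAAT was found in 58.3% and the CHR core in 19.4%. The E2F motifs TTTGGCGC and TTTCGCGC, known from S phase genes, were found in 5.88% of member promoters, beside 30.6% of the 36 promoters of an S phase list and 1.44% of those of genes tested. The forkhead motif TGTTTAC was found in 5.88% of member promoters and 2.94% of those of genes tested. The ratio of highest to lowest liver, on values plus 1, had a median of 13.9 over the 37 members with a CHR core and 15.3 over the 11 without, and Bub3, with a ratio of 1.67, holds the motif. Mybl2 and Pttg1, like Birc5 and Ccnb1, had none in this window. A match is a run of letters and not a measured binding site.

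The kinases and phosphatases of mitotic entry were all lowest in the common pair, URI(+/D)Hep liver 5 and URI(+/+)Hep liver 1, with the phosphatase gene Cdc25b the least variable among them. Cdk1, the kinase that triggers mitosis, stood at 579, 413, 271, 469 and 63.3 normalized reads in URI(+/D)Hep livers 1 to 5, against 82.7, 372 and 569 in URI(+/+)Hep livers 1 to 3. Its partner cyclin B1, Ccnb1, stood at 171, 108, 83.1, 145 and 9.89 in the URI(+/D)Hep livers, against 14.4, 117 and 164 in the URI(+/+)Hep livers. Both were lowest in URI(+/D)Hep liver 5 and highest in URI(+/D)Hep liver 1, and the genotypes overlapped. Plk1, the polo-like kinase of entry and spindle assembly, stood at 419.9, 342, 239.7, 362 and 49.5 in the URI(+/D)Hep livers, against 22.8, 297 and 487 in the URI(+/+)Hep livers. Cdc25b, a phosphatase that activates Cdk1, ranged less, at 174, 123, 121, 209.8 and 85.1 in the URI(+/D)Hep livers, against 75.6, 207 and 308 in the URI(+/+)Hep livers. Its lowest pair was the common pair, but its ratio of highest to lowest liver, on values plus 1, was 4.04, beside 14.3 for Ccna2, 21.8 for the kinase gene Aurka and 23.0 for Cdc25c. Melk and Pbk, kinases of dividing cells, and Ccnb2 had ratios of 17.1, 16.6 and 13.6.

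The transcription factors of the programme parted. Foxm1, which drives G2 and mitosis genes, stood at 32.7, 25.9, 15.5, 22.5 and 1.98 normalized reads in URI(+/D)Hep livers 1 to 5, against 1.20, 22.6 and 35.4 in URI(+/+)Hep livers 1 to 3. The low values rest on 2 reads in URI(+/D)Hep liver 5, with a 95% exact Poisson interval of 0.239 to 7.14 normalized reads, and on 1 read in URI(+/+)Hep liver 1, with an interval of 0.0304 to 6.68. Intervals cover counting error only. Mybl2, the B-Myb subunit of the MMB complex, stood at 5.30, 6.48, 9.67, 5.62 and 6.92 in the URI(+/D)Hep livers, against 20.4, 14.8 and 8.58 in the URI(+/+)Hep livers. It was the 1 member highest in URI(+/+)Hep liver 1, where most other members were lowest. Its groups overlapped, since URI(+/D)Hep liver 3 lay above URI(+/+)Hep liver 3, and its values were too low for the filter, so it was not tested. The interval for its 17 reads in URI(+/+)Hep liver 1 was 11.9 to 32.6 normalized reads, and for its 7 reads in URI(+/D)Hep liver 5 it was 2.78 to 14.3.

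**Figure D2:**
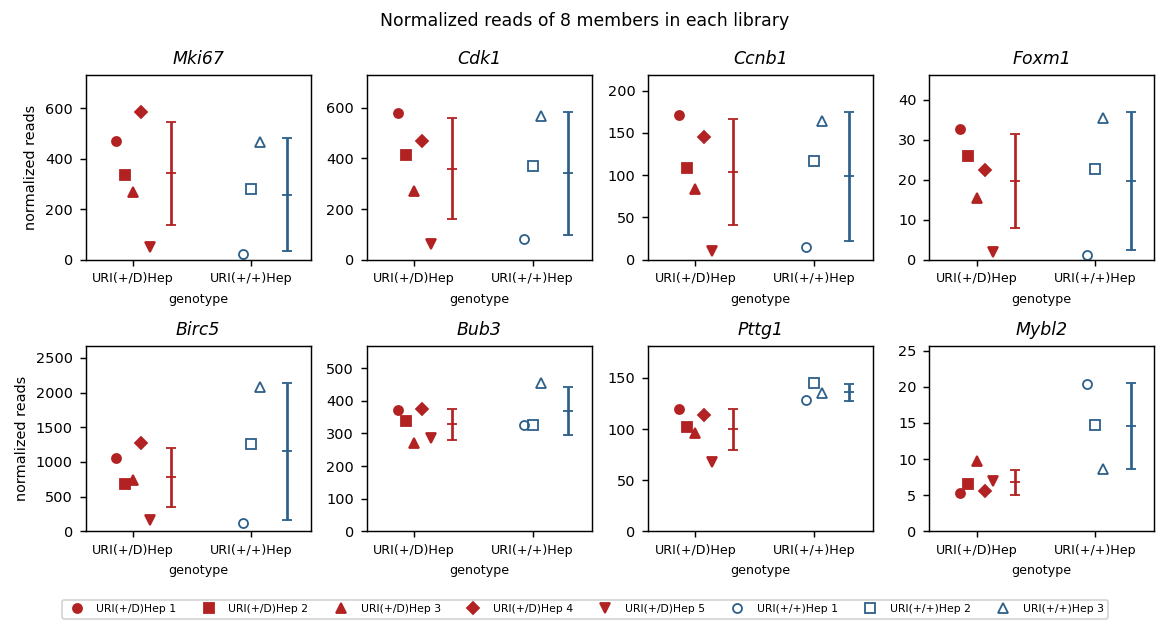
Normalized reads of 8 members, 1 point per library with the symbol giving the replicate number, and bars for the mean ± SD of 5 URI(+/D)Hep and 3 URI(+/+)Hep libraries. Mki67, Cdk1, Ccnb1, Foxm1 and Birc5 are low in URI(+/D)Hep 5 and URI(+/+)Hep 1, while Bub3 spans 271 to 454, Pttg1 is lower in all 5 URI(+/D)Hep libraries and Mybl2 is highest in URI(+/+)Hep 1.

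Genes of chromosome structure were all lowest in the same pair, with URI(+/+)Hep liver 1 the lowest for each of the 8. Mki67, which coats mitotic chromosomes and marks dividing cells, stood at 469, 333, 268, 586 and 49.5 normalized reads in URI(+/D)Hep livers 1 to 5, against 24.0, 282 and 468 in URI(+/+)Hep livers 1 to 3. Top2a, the topoisomerase that untangles sister chromatids, stood at 1026, 752, 563, 1064 and 159 in the URI(+/D)Hep livers, against 61.2, 602 and 927 in the URI(+/+)Hep livers. For both genes URI(+/D)Hep liver 4 was the highest and URI(+/+)Hep liver 1 the lowest, and the groups overlapped. Smc4, an ATPase of condensin, stood at 1432, 1095, 824, 1536 and 309.6 in the URI(+/D)Hep livers, against 306, 1090.0 and 1524 in the URI(+/+)Hep livers. Ncaph, the kleisin of condensin I, stood at 39.8, 29.6, 17.4, 30.9 and 6.92 in the URI(+/D)Hep livers, against 1.20, 16.7 and 31.1 in the URI(+/+)Hep livers, where the lowest value is a single read. Among condensin genes the ratio of highest to lowest liver, on values plus 1, was thus uneven, at 5.01 for Smc4, 6.10 for Ncapd2, 6.89 for Smc2, 12.8 for Ncapg and 18.5 for Ncaph. Cdca2, which brings a phosphatase back to chromosomes at mitotic exit, had a ratio of 19.4.

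The chromosomal passenger complex corrects faulty attachments and then moves to the midzone, and its 3 genes among the members were low in the common pair of livers. Birc5, or survivin, stood at 1057, 681, 740.4, 1275 and 157 normalized reads in URI(+/D)Hep livers 1 to 5, against 121, 1256 and 2077 in URI(+/+)Hep livers 1 to 3. Cdca8, or borealin, stood at 377, 274, 152, 339 and 37.6 in the URI(+/D)Hep livers, against 46.8, 245 and 443 in the URI(+/+)Hep livers. Aurkb, the kinase of the complex, ranged from 1.98 to 25.6 in the URI(+/D)Hep livers, against 3.60 to 35.4 in the URI(+/+)Hep livers. For all 3 genes URI(+/+)Hep liver 3 was the highest of the 8. Outside the pair of low livers, Birc5 averaged 938 ± 278 in URI(+/D)Hep livers 1 to 4 (SD, n = 4), against 1256 and 2077 in URI(+/+)Hep livers 2 and 3, which gives -0.83 on the log2 scale (SE 0.29, limma adjusted p = 0.246), short of the threshold. It was named here after its values over these 6 livers were seen.

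Centromere and kinetochore genes were all lowest in URI(+/+)Hep liver 1. Cenpe, the kinesin that carries chromosomes to the spindle equator, stood at 733, 488, 319, 629 and 81.1 normalized reads in URI(+/D)Hep livers 1 to 5, against 20.4, 331 and 608 in URI(+/+)Hep livers 1 to 3. Cenpf, a large outer kinetochore protein, stood at 946, 629.6, 444, 875 and 60.3 in the URI(+/D)Hep livers, against 44.4, 455 and 758 in the URI(+/+)Hep livers. Both were highest in URI(+/D)Hep liver 1 and lowest in URI(+/+)Hep liver 1. Cenpa, the histone H3 variant that marks centromeres, stood at 251, 187, 129, 260.4 and 36.6 in the URI(+/D)Hep livers, against 30.0, 142 and 245 in the URI(+/+)Hep livers. The 4 subunits of the NDC80 complex, the microtubule coupler, did not keep 1 ratio to each other. As an example, in URI(+/D)Hep livers 3 and 4, Nuf2 stood at 23.2 and 95.5 and Ndc80 at 79.3 and 109 normalized reads. Spc24 stood there at 229 and 641, and Spc25 at 359.6 and 440.3. The 23.2 of Nuf2 rests on 24 reads, with a 95% exact Poisson interval of 14.9 to 34.5 normalized reads. The ratio of highest to lowest liver, on values plus 1, was 8.44 for Cenpa, the smallest of this group, and 34.3 for Cenpe, the largest.

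Spindle checkpoint genes differed in how far they ranged between livers. Ttk, the Mps1 kinase at the top of the checkpoint, stood at 354, 276, 164, 343 and 27.7 normalized reads in URI(+/D)Hep livers 1 to 5, against 12.0, 205 and 311 in URI(+/+)Hep livers 1 to 3. Bub3, the adaptor that brings Bub1 and BubR1 to kinetochores, stood at 371, 337, 271, 376 and 287 in the URI(+/D)Hep livers, against 325, 327 and 454 in the URI(+/+)Hep livers. Ttk varied 27.4-fold and Bub3 1.67-fold between the highest and lowest liver on values plus 1. Bub3 also takes part in interphase processes, and its SD between libraries of a genotype, 0.24 on the log2 scale, lay at percentile 38.9 of all genes tested. The kinase Bub1, the BubR1 gene Bub1b and Mad2l1, the APC/C inhibitor, had ratios of 8.56, 7.15 and 8.42.

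Spindle genes were all lowest in the common pair. Stmn1, or stathmin, which binds free tubulin, stood at 645, 417, 392, 697 and 83.1 normalized reads in URI(+/D)Hep livers 1 to 5, against 56.4, 609 and 885 in URI(+/+)Hep livers 1 to 3. Nusap1, a microtubule bundler, stood at 399.5, 292, 174, 318 and 40.5 in the URI(+/D)Hep livers, against 31.2, 232 and 357 in the URI(+/+)Hep livers. It kept closest to the mean of the members, with an SD over the 8 livers of 0.14 on the log2 scale after that mean was taken off. Tacc3, which stabilizes kinetochore fibres, stood at 163, 125, 101, 176 and 15.8 in the URI(+/D)Hep livers, against 21.6, 111 and 180.2 in the URI(+/+)Hep livers. Hmmr had the largest ratio of highest to lowest liver of all members, 43.2 on values plus 1, and ranged from 15.8 to 280.1 in the URI(+/D)Hep livers, against 6.00 to 301 in the URI(+/+)Hep livers. Its lowest value is 5 reads, with an exact Poisson interval of 1.95 to 14.0 normalized reads, so this rank is uncertain. The motor Kif11, which pushes spindle poles apart, and Tpx2, which activates Aurora A, had ratios of 17.5 and 17.9 on values plus 1.

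Midzone and cytokinesis genes were lowest in the same pair. Prc1, which bundles the microtubules of the midzone, stood at 436, 327, 219, 422 and 39.6 normalized reads in URI(+/D)Hep livers 1 to 5, against 20.4, 232 and 401 in URI(+/+)Hep livers 1 to 3. Kif20b, a kinesin of late cytokinesis, stood at 375, 223, 175, 348 and 54.4 in the URI(+/D)Hep livers, against 21.6, 184 and 304 in the URI(+/+)Hep livers. URI(+/D)Hep liver 5 was the lowest for 2 of the 8 genes of this group, Kif20a and Anln, and URI(+/+)Hep liver 1 for the other 6. Kif4, the chromokinesin that sets midzone length, stood at 102, 65.7, 50.3, 105 and 15.8 in the URI(+/D)Hep livers, against 2.40, 41.4 and 84.8 in the URI(+/+)Hep livers. Its lowest value is 2 reads, with a 95% exact Poisson interval of 0.290 to 8.66 normalized reads, against an interval of 9.04 to 25.7 for the 16 reads of URI(+/D)Hep liver 5. Kif23, a subunit of centralspindlin, ranged least in this group, at 131, 83.3, 85.1, 141 and 44.5 in the URI(+/D)Hep livers, against 22.8, 122 and 172 in the URI(+/+)Hep livers.

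Genes of the APC/C, of chromatid separation and of cohesion held the 1 member whose genotypes did not overlap. Ube2c, the ubiquitin-conjugating enzyme of the APC/C, stood at 617, 447, 298, 620.1 and 38.6 normalized reads in URI(+/D)Hep livers 1 to 5, against 44.4, 486 and 785 in URI(+/+)Hep livers 1 to 3. Cdca3, a trigger of mitotic entry that the APC/C degrades, stood at 384, 205, 175, 407 and 22.7 in the URI(+/D)Hep livers, against 27.6, 288 and 511 in the URI(+/+)Hep livers. Both were lowest in the common pair, as were Cdc20, the activator of the APC/C, separase (Espl1), shugoshin (Sgo1) and sororin (Cdca5), though Cdca5 rested on 1 read in URI(+/D)Hep liver 5 and 3 reads in URI(+/+)Hep liver 1. Pttg1, securin, which holds separase inactive until anaphase, stood at 119, 102, 95.7, 113 and 68.2 in the URI(+/D)Hep livers, against 128, 145 and 135 in the URI(+/+)Hep livers. All 5 URI(+/D)Hep livers lay below all 3 URI(+/+)Hep livers, and URI(+/+)Hep liver 1, low for nearly all other members, was not low for Pttg1.

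Seen by role, the groups gave the same picture at different amplitudes. As the mean of log2(normalized reads + 1) minus each gene's mean over the livers, all tested members together stood at 1.08, 0.53, 0.13, 1.01 and -1.89 in URI(+/D)Hep livers 1 to 5, against -2.40, 0.41 and 1.15 in URI(+/+)Hep livers 1 to 3. This averaged 0.17 ± 1.21 in the URI(+/D)Hep livers and -0.28 ± 1.88 in the URI(+/+)Hep livers (SD, n = 5 and n = 3), so the means differed by less than either SD. The distance from the lowest to the highest liver was 2.67 for the checkpoint genes, 3.47 for chromosome structure and 4.09 for spindle genes on that scale. The 5 checkpoint genes include Bub3, which varied 1.67-fold between highest and lowest liver on values plus 1, beside 27.4-fold for Ttk. The SD over members within a library was 0.25 to 0.31 in URI(+/D)Hep livers 1 to 4 and 0.60 in URI(+/D)Hep liver 5, against 0.76 in URI(+/+)Hep liver 1 and 0.26 and 0.31 in URI(+/+)Hep livers 2 and 3. Since values are centred on each gene's mean, livers far from it spread more wherever genes differ in amplitude. Counting error also adds to the spread in the low pair, where 4 and 9 members had 3 reads or fewer. The share of either in the larger SD of the low livers was not tested. For the chromosomal passenger complex and for the APC/C group URI(+/D)Hep liver 5 was the lowest, at -2.17 and -2.30, against -1.98 and -2.05 in URI(+/+)Hep liver 1. In the other role groups URI(+/+)Hep liver 1 was the lowest. The order of this pair in the former groups leans on few reads. In URI(+/D)Hep liver 5 and URI(+/+)Hep liver 1, Aurkb had 2 and 3 reads and Cdca5 had 1 and 3. It also leans on Pttg1, at 68.2 and 128 normalized reads in these livers.

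**Figure D3:**
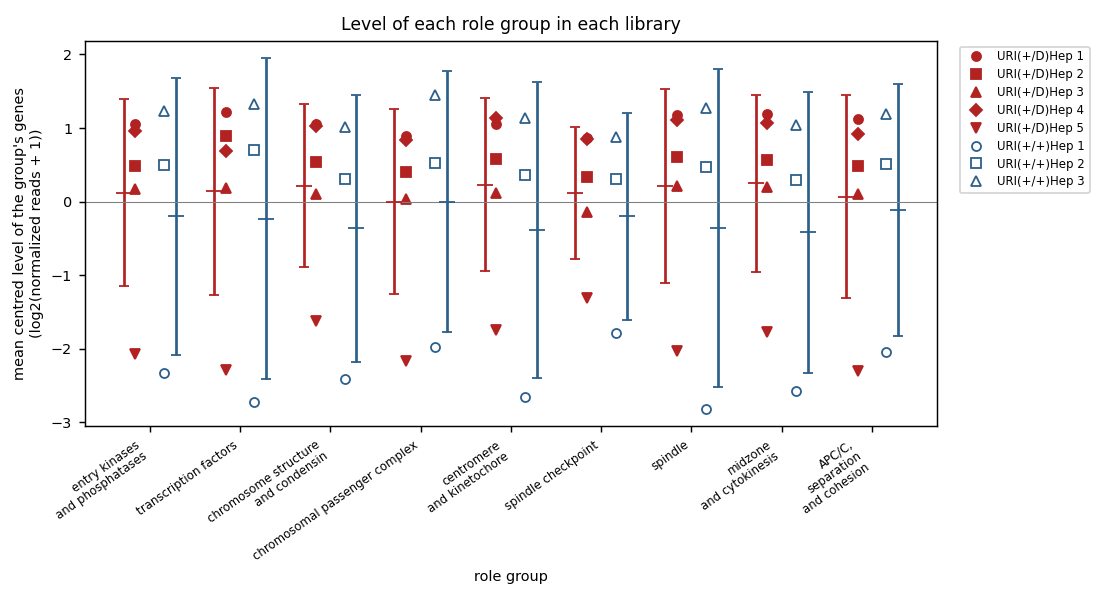
Mean level of each role group's genes, as log2(normalized reads + 1) minus each gene's mean over 8 libraries, with 1 symbol per library and the mean ± SD of each genotype beside it (URI(+/D)Hep left, n = 5; URI(+/+)Hep right, n = 3). In each role group URI(+/D)Hep 5 and URI(+/+)Hep 1 lie below all other libraries, and the means differ by less than the SDs. The transcription factor group holds Foxm1 alone, the 1 of its genes that was tested.

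Against the rest of the transcriptome these genes stood out by their spread between livers of the same genotype. The residual SD of log2(normalized reads + 1) within genotypes had a median of 1.56 over the 59 members and 0.28 over the 13704 genes tested. Of the 59 members, 56 lay in the top 5% of genes by this SD, the others being Cdc25b, Bub3 and Pttg1. Highest and lowest liver differed more than 5-fold, on values plus 1, for 56 of 60 members and for 8.90% of the genes tested.

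**Figure D4:**
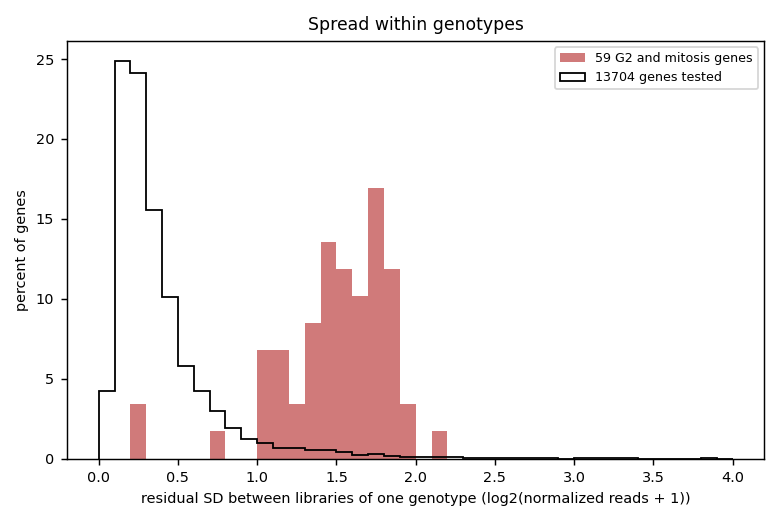
Histogram of the residual SD between libraries of the same genotype, in log2(normalized reads + 1), for the 59 members tested (filled) and for all 13704 genes tested (line), each as a percent of its genes. The members centre near 1.56 and all genes near 0.28, with Bub3 and Pttg1 in the left part.

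The comparison of URI(+/D)Hep with URI(+/+)Hep livers asked whether a hepatocyte deletion of URI goes with a different level of this programme. No member passed the test: 0 of 59 were called by limma at an adjusted p under 0.05, where 0.0146% of all genes tested were called, all of them lower. The test used log2(normalized reads + 1) with a filter of at least 10 normalized reads in at least 3 libraries, and fold changes on this scale understate the change of low genes. Log2 fold changes were positive for 53 members and negative for 6, with a median of 0.48 and a range from -0.47 for Pttg1 to 1.31 for Kif4, beside a median of 0.00 over all genes. The median was smaller by count models on the same 8 libraries, at 0.19 by edgeR and 0.21 by DESeq2, each with 39 of 59 positive. The limma standard errors of the members had a median of 0.93, against 0.21 over all genes. At an unadjusted p under 0.05 there was 1 member, Pttg1, where 17.7% of all genes reached that level. On recovered reads, edgeR called 0 of 59 members, where it called 0.0219% of all genes, all of them lower. DESeq2 called 0 of the 47 members to which it gave an adjusted p, where it called 6.67% of genes, 2.57% higher and 4.10% lower. Both tools counted Pttg1 alone at an unadjusted p under 0.05, where 17.7% of all genes by edgeR and 17.0% by DESeq2 reached that level. The negative members were Pttg1, Cdc25b, Bub3, Nuf2, Mad2l1 and Birc5.

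For Mki67 the log2 fold change was 0.82, with a 95% interval from -1.51 to 3.15 (SE 1.03, limma adjusted p = 0.720), and for Cdk1 it was 0.14, with an interval from -1.66 to 1.94 (SE 0.80, limma adjusted p = 0.947). Such intervals hold both a fall and a rise of more than 2-fold, so a difference of that size was not detectable between these groups. Bub3 had a narrow interval, from -0.53 to 0.21 (log2 fold change -0.16, SE 0.16, limma adjusted p = 0.642), which leaves out a change of 2-fold either way. Pttg1 averaged 99.7 ± 19.9 normalized reads in URI(+/D)Hep livers and 136 ± 8.25 in URI(+/+)Hep livers (SD, n = 5 and n = 3), which is -0.47 on the log2 scale (SE 0.19, limma adjusted p = 0.242). It was the 1 member of 59 whose groups did not overlap, where 13.4% of all genes tested did not, 6.13% with URI(+/D)Hep higher and 7.30% with it lower. Kif4 and Ncaph, next by p, had log2 fold changes of 1.31 (SE 1.00, limma adjusted p = 0.523) and 1.06 (SE 0.86, limma adjusted p = 0.548), with overlapping groups. Role group medians ranged from 0.02 for the chromosomal passenger complex to 0.70 for centromere and kinetochore genes and 0.72 for midzone genes, with 0 members called in each. The median of the members turned to -0.58 without URI(+/+)Hep liver 1, with 0 of 59 positive, and was 1.21 without URI(+/+)Hep liver 3 and 1.00 without URI(+/D)Hep liver 5, with 57 and 56 of 59 positive.

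**Figure D5:**
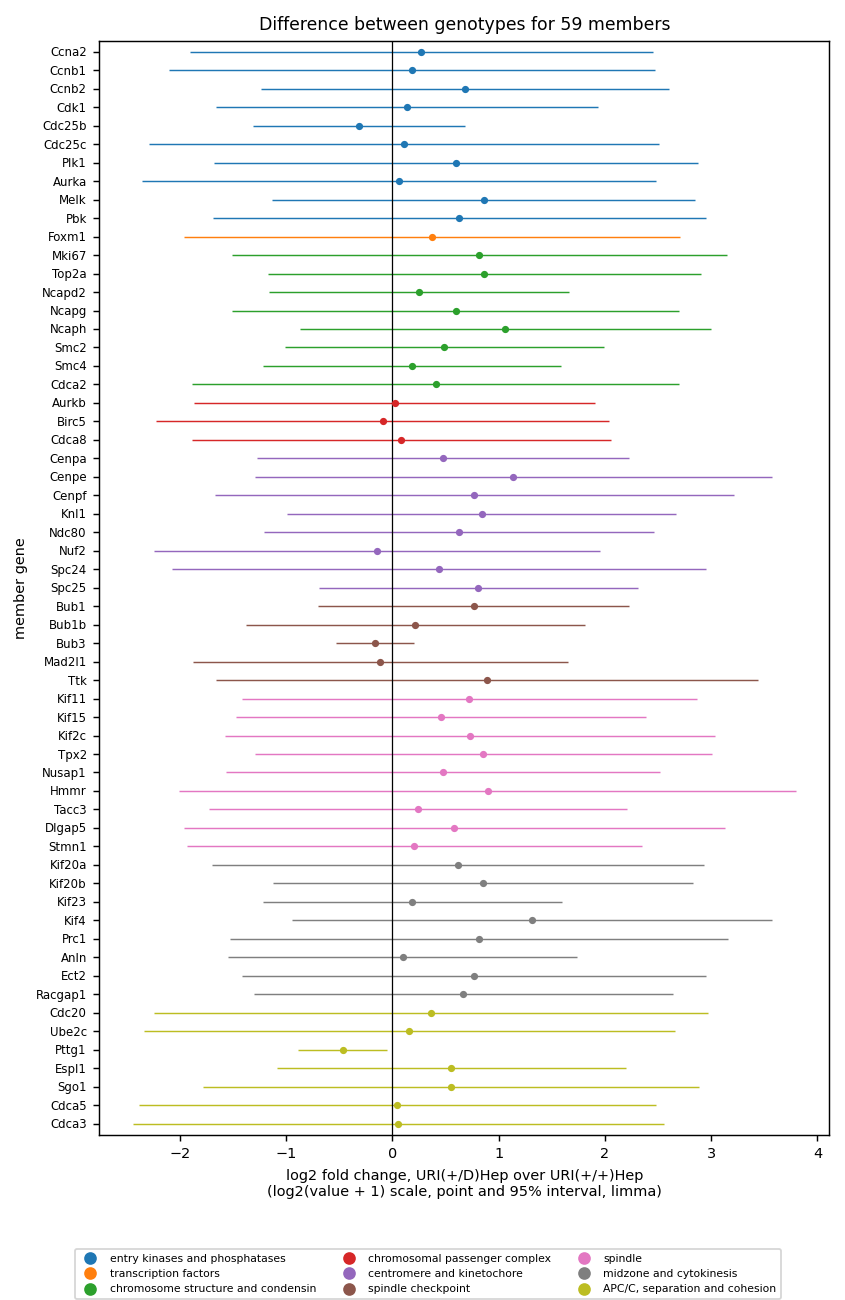
Log2 fold change of URI(+/D)Hep over URI(+/+)Hep for the 59 tested members, on the log2(value + 1) scale, with the limma 95% interval as a line and the role group as colour. All intervals but that of Pttg1, from -0.89 to -0.05, include 0, and those of Bub3 and Pttg1 are much narrower than the rest.

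The genotypes were also compared without the pair of low livers and at an equal level of the programme. Over the other 6 livers the median log2 fold change of the members was -0.07, with 24 of 59 positive and 0 called. This pair was left out because of the members' own low values. Pttg1 stood at 95.7 to 119 normalized reads in URI(+/D)Hep livers 1 to 4, against 145 and 135 in URI(+/+)Hep livers 2 and 3 (log2 fold change -0.38, SE 0.15, limma adjusted p = 0.276). A fit with the mean level of 90 other G2 and mitosis genes as a covariate, added after the data were seen, gave a median of 0.17 with 36 of 59 positive and called 0 of 59 members, where it called 3.55% of all genes, 1.57% higher and 1.98% lower. At an unadjusted p under 0.05 it counted 14 of 59 members, no larger a share than the 24.8% of all genes. In this fit Mki67 was at 0.44 on the log2 scale with an SE of 0.19 (limma adjusted p = 0.185). Kif4 was at 0.96 (SE 0.29, limma adjusted p = 0.0841) and the kinetochore scaffold Knl1 at 0.54 (SE 0.17, limma adjusted p = 0.0961). Tpx2, at 0.50 (SE 0.16, limma adjusted p = 0.0883), and Kif20b, at 0.53 (SE 0.17, limma adjusted p = 0.0959), ranked between them by p. Pttg1 was at -0.51 (SE 0.14, limma adjusted p = 0.0665) and Cdc25b at -0.46 (SE 0.17, limma adjusted p = 0.133).

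Other genes of the same phases were, on average, also lowest in the common pair, with a smaller amplitude. The list of 90 further G2 and mitosis genes, with cohesin, APC/C subunits and the inner kinetochore among them, had a mean centred level of 0.64, 0.27, -0.08, 0.59 and -1.09 in URI(+/D)Hep livers 1 to 5, against -1.17, 0.16 and 0.68 in URI(+/+)Hep livers 1 to 3. Fold changes were positive for 59 of these genes and negative for 31, their log2 median was 0.17, and 0 were called. The members of that list with the smallest p were the cohesin genes Stag2 and Smc3 and the cohesin release factor Wapl, with log2 fold changes of 0.40 (SE 0.09, limma adjusted p = 0.115), 0.51 (SE 0.18, limma adjusted p = 0.203) and 0.33 (SE 0.12, limma adjusted p = 0.200), and the APC/C subunit Anapc4, at -0.34 (SE 0.13, limma adjusted p = 0.233). Stag2 stood at 560.4, 556, 555, 477 and 529 normalized reads in the URI(+/D)Hep livers, against 413, 389 and 415 in the URI(+/+)Hep livers, and its groups did not overlap. The groups did not overlap for 3 of the 90 genes, 2 higher, which were Stag2 and Wapl, and 1 lower, beside the 13.4% of all genes tested. For Stag2 URI(+/D)Hep liver 4 and URI(+/+)Hep liver 2 were the lowest of their genotypes, unlike for the members. S phase genes, 35 of 36 listed, had centred levels of 0.84, 0.38, -0.33, 0.62 and -1.25 in URI(+/D)Hep livers 1 to 5, against -1.09, 0.16 and 0.67 in URI(+/+)Hep livers 1 to 3, and their log2 fold changes had a median of 0.12 with 0 called.

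Transcripts of sex and of other cell types differed between the livers as well. Among the 5 livers that held both Xist and Y-linked transcripts, URI(+/D)Hep livers 2 to 5 and URI(+/+)Hep liver 3, the median log2 fold change of the members was -1.15 with 0 of 59 positive. This fit has a single control, URI(+/+)Hep liver 3, which had the highest mean level of the members, so its sign rests on that library. A separate fit over all 8 livers, with the Y-linked share beside genotype, gave a median of -0.37 with 7 of 59 positive. No member was called in either fit. The sum of 5 of 5 Kupffer cell markers was 4276, 3364, 2904, 4399 and 2508 normalized reads in URI(+/D)Hep livers 1 to 5, against 1595, 3344 and 3183 in URI(+/+)Hep livers 1 to 3, lowest in the pair low for the members. Of the 4 bile duct markers measured, Epcam, Krt19 and Krt7 were highest in URI(+/D)Hep liver 5, at 525, 65.3 and 21.8. In all other livers they were at most 30.0, 5.91 and 10.8. Krt19 was at 0 in URI(+/D)Hep liver 1, and neither Krt19 nor Krt7 passed the filter. Sox9, of the same list, stood at 108 to 175 in the URI(+/D)Hep livers, against 1140.5, 631 and 121 in URI(+/+)Hep livers 1 to 3. The bile duct list summed to 129 to 764 in the URI(+/D)Hep livers, against 147 to 1185 in the URI(+/+)Hep livers. Monocyte markers, 4 of 4, summed to 314 to 996 in the URI(+/D)Hep livers, against 299 to 685 in the URI(+/+)Hep livers. In URI(+/D)Hep liver 5, the highest sum, 909 of the 996 were Plac8, while Ccr2 stood there at 43.5, against 109, 162 and 66.5 in URI(+/+)Hep livers 1 to 3. Sinusoidal endothelial markers, 5 of 5, summed to 1992 to 2177 in the URI(+/D)Hep livers, against 1476 to 1901 in the URI(+/+)Hep livers, so these sums did not overlap, and 0 of the 5 genes were called. Of these genes, 1 was higher without overlap, Stab2, at 946 to 1041 against 672 to 866, beside 6.13% of all genes tested. Lyve1, Pecam1, Kdr and Clec4g overlapped. Neutrophil markers, 5 of 5, summed to 270.5 to 807 in the URI(+/D)Hep livers, against 498 to 983 in the URI(+/+)Hep livers. Of these, Mmp9 and Ly6g were lower in all URI(+/D)Hep livers, beside 7.30% of all genes tested that were lower without overlap. Ly6g stood at 0 in URI(+/D)Hep liver 3, and its values were too low for the filter. S100a8, S100a9 and Csf3r overlapped, and 0 of the 4 neutrophil markers that passed the filter were called. The 5 hepatocyte markers measured, Alb and Apoa1 among them, summed to 20890.0 to 24880.0 in the URI(+/D)Hep livers, against 23029 to 26620.0 in the URI(+/+)Hep livers, and their sum was not low in the pair. Single genes went different ways. In URI(+/+)Hep livers 1 to 3, Alb stood at 6753, 9488 and 10748, and Apoa1 at 9300, 5187 and 4494. The part of sex, of other cell types and of depth in the levels of the members was not tested.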

How the data were processed

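The 8 libraries were made from total liver RNA with oligo-dT priming and a second-strand primer carrying a molecular identifier, per the labels' protocols. The table deposited by the authors holds normalized signal. Dividing by each library's smallest value above 0 gave whole numbers (100.0% of values within 1e-06), as read counts over a size factor would. In URI(+/D)Hep replicate 5 that value is close to 1, so it is less certain there. Names of tools, bcl2fastq, featureCounts and DESeq2, and the build GRCm39 come from the submitters' processing notes. The aligner, the annotation, the handling of identifiers and of reads matching several loci were not stated (not given in the sources used here).

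Log2(value + 1) was fitted with limma 3.58.1 in R 4.3.3 (mean-variance trend, Benjamini-Hochberg over the 13704 genes that reached 10 in 3 or more libraries), and edgeR 4.0.16 and DESeq2 1.42.0 were run on recovered reads. Steps were tested on simulated data. Alternatives were other pseudocounts, filters, scaling and tools, a replicate block, libraries left out, and covariates. The members and lists were chosen with earlier results of these data known. Members given in every library were fixed by name or were, in a role group, the 2 with the highest mean and the 1 with the smallest ratio, with any called or not overlapping and the 3 smallest p. Promoter coordinates belong to GRCm38.p6, and no measured value depends on them.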

Additional observations from a re-analysis of the deposited data

Results flagged for a closer look

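URI(+/D)Hep liver 5 lay far below the other 4 livers of its genotype for several members. On the log2(normalized reads + 1) scale, its gap to the nearest liver, as a share of the range of the 5 livers, was 0.768 for Tacc3, 0.740 for Ccnb1, 0.737 for Plk1, 0.734 for Ube2c, 0.729 for Stmn1, 0.724 for Cenpf and 0.712 for Prc1, above the critical value of 0.71 for 5 samples. The same held for the mean level of the entry kinases and phosphatases, at 0.720, and of the chromosomal passenger complex, at 0.717. Of 37 members and means examined, 9 passed, where chance gives about 1 in 20. They share a library and are not separate findings. The group of 3 URI(+/+)Hep livers was too small for this rule.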

How the results depend on the processing

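No member was called under any of the 23 alternatives run. The median log2 fold change of the members, 0.48, ranged from -0.58 to 1.21 when each library was left out, and was -1.15 among the 5 libraries holding both Xist and Y-linked reads, -0.37 with the Y-linked share in the model, 0.19 by edgeR, 0.21 by DESeq2, 0.17 with the level of the other G2 and mitosis genes as a covariate and 0.94 with the replicate number as a block. With that block 0 genes were called in all; same-numbered libraries did not deviate together (correlations of -0.40, -0.04 and -0.27 for replicates 1, 2 and 3), nor did each correlate best with its own number, so the numbers were not taken as pairs. Genes called over the whole table, 2, were 4 with a mean of at least 50, 0 without the trend, 1 without URI(+/D)Hep replicate 5 and URI(+/+)Hep replicate 1 together, 0 with the Y-linked share in the model, 0 among the libraries of both sex transcripts, 487 with the level of the other G2 and mitosis genes as a covariate, 612 by DESeq2, and, without URI(+/D)Hep replicate 5, 0 by edgeR and 378 by DESeq2. Leaving out each library gave 0 to 34. The cause of these changes was not tested. By DESeq2, 47 of 59 members had an adjusted p, the smallest being 0.197, and by edgeR the smallest was 0.241; at an unadjusted p under 0.05 each counted 1 member, Pttg1. Counting error limits the low pair of livers, where up to 9 members had 3 reads or fewer. The fit among libraries with both kinds of sex transcripts has URI(+/+)Hep replicate 3 as its 1 control, assumed to vary like the other group.

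Without URI(+/D)Hep replicate 5 and URI(+/+)Hep replicate 1 together, log2 fold changes on the other side of 0 were Ccnb1 -0.18, Cdk1 -0.14, Plk1 -0.19, Foxm1 -0.27, Smc4 -0.12, Cdca8 -0.29, Nusap1 -0.024, Tacc3 -0.036, Stmn1 -0.49, Kif23 -0.43, Ube2c -0.38, Cdca3 -0.49. With the Y-linked share in the model, log2 fold changes on the other side of 0 were Ccnb1 -0.71, Cdk1 -0.62, Plk1 -0.32, Foxm1 -0.58, Mki67 -0.089, Smc4 -0.39, Cdca8 -0.78, Cenpa -0.27, Cenpf -0.22, Ttk -0.12, Nusap1 -0.40, Tacc3 -0.50, Stmn1 -0.64, Kif20b -0.024, Kif23 -0.41, Prc1 -0.14, Ube2c -0.82, Cdca3 -0.96. Among the libraries of both sex transcripts, log2 fold changes on the other side of 0 were Ccnb1 -1.42, Cdk1 -1.24, Plk1 -1.31, Foxm1 -1.46, Mki67 -1.05, Top2a -0.84, Ncaph -0.72, Smc4 -0.91, Cdca8 -1.54, Cenpa -0.98, Cenpe -1.02, Cenpf -1.12, Ttk -1.10, Nusap1 -1.15, Tacc3 -1.20, Stmn1 -1.50, Kif20b -0.87, Kif23 -1.06, Kif4 -0.79, Prc1 -1.10, Ube2c -1.72, Cdca3 -1.90. With the level of the other G2 and mitosis genes as a covariate, log2 fold changes on the other side of 0 were Ccnb1 -0.19, Cdk1 -0.15, Smc4 -0.045, Cdca8 -0.24, Tacc3 -0.078, Stmn1 -0.14, Kif23 -0.029, Ube2c -0.25, Cdca3 -0.35. By edgeR, log2 fold changes on the other side of 0 were Foxm1 -0.020, Cdca8 -0.065, Stmn1 -0.22, Kif23 -0.14, Ube2c -0.13, Cdca3 -0.22. By DESeq2, log2 fold changes on the other side of 0 were Foxm1 -0.0038, Cdca8 -0.053, Stmn1 -0.21, Kif23 -0.12, Ube2c -0.12, Cdca3 -0.21. With the replicate number as a block, log2 fold changes on the other side of 0 were Birc5 0.25. Leaving out each library in turn, members that changed side ranged as follows: Ccnb1 -0.88 to 0.88, Cdk1 -0.68 to 0.70, Cdc25b -0.89 to 0.12, Plk1 -0.73 to 1.45, Foxm1 -0.88 to 1.15, Mki67 -0.47 to 1.64, Top2a -0.33 to 1.62, Ncaph -0.083 to 1.85, Smc4 -0.51 to 0.65, Birc5 -1.33 to 0.71, Cdca8 -0.85 to 0.76, Cenpa -0.39 to 1.11, Cenpe -0.33 to 2.09, Cenpf -0.46 to 1.57, Ttk -0.54 to 1.75, Nusap1 -0.58 to 1.16, Tacc3 -0.65 to 0.86, Stmn1 -1.02 to 0.95, Kif20b -0.28 to 1.60, Kif23 -0.68 to 0.75, Kif4 -0.069 to 2.26, Prc1 -0.46 to 1.65, Ube2c -1.10 to 0.96, Cdca3 -1.19 to 0.89. The covariate for other G2 and mitosis genes and the count tests on 7 libraries were chosen after seeing the data.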
